A study of Mus musculus with 9 samples.

Results

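Heart transcripts of 9 genes of adrenergic signalling were examined. They comprised the receptors Adrb1, Adra1a and Adra1b, the receptor kinases Adrbk1 and Grk5, the adenylyl cyclases Adcy5 and Adcy6, and the phosphodiesterases Pde3a and Pde4d. The genes were taken by symbol from the 13890 genes with a symbol in the deposited counts, and each of the 9 was found and passed the filter on low counts. The hearts came from male NSG mice, operated on at 8 weeks of age and labelled as collected at week 3. Sham mice (S, animals 2, 3 and 5) received vehicle into the spleen. Tumour hosts (T, animals 11, 12 and 15) received HCT116 cells, a human colorectal cancer line that seeds the liver from the spleen. Treated hosts (A + T, animals 20, 21 and 22) received the same cells and ACVR2B/Fc, a soluble activin receptor that binds myostatin, activins and related ligands. NSG mice lack mature lymphocytes and so do not reject human cells, and the hosts therefore had no adaptive immune response to the tumour. Each library came from a separately numbered animal, and there were 3 per group.

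Noradrenaline from sympathetic nerves and adrenaline from the adrenal gland drive the heart through adrenergic receptors. The beta-1 receptor Adrb1 couples through Gs to adenylyl cyclases, which make cAMP. Protein kinase A (PKA) then phosphorylates calcium-handling and contractile proteins, which speeds and strengthens the beat. Phosphodiesterases break cAMP down, receptor kinases mark active receptors for arrestin binding and uptake, and the alpha-1 receptors Adra1a and Adra1b act instead through Gq, phospholipase C and protein kinase C.

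None of the 9 genes passed the test in any comparison. In T vs. S, Adrb1, the main receptor of the cardiac beta-adrenergic response, had a fold change of 0.966 (95% interval 0.815 to 1.14). The smallest adjusted P-value was 0.0689, for Adra1a in A + T vs. S, where its fold change was 1.46 (95% interval 1.13 to 1.88). Of 127 other genes of the same pathway, 22.8% passed in T vs. S, a share near the 21.2% of all genes tested. Among them were the receptor Adra1d, the PKA regulatory subunit Prkar1a and the noradrenaline-synthesising enzyme Dbh.

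Library totals ran from 12392222 to 19732471 counts. Levels are given as CPM, the count relative to library size after TMM scaling, which corrects for composition, and 3 counts came to 0.152 to 0.242 CPM. Differences were tested with edgeR's quasi-likelihood test over all 13364 genes that passed the filter, and a gene was called when its P-value after Benjamini-Hochberg adjustment was under 0.05. Each P-value sets a difference between groups against the spread within groups, which was estimated over all 9 libraries together. When the T libraries were set against S, their fold changes matched the column for ACVR2B/Fc vs. sham in the study's gene table and not that for tumour hosts, so T stands below for the libraries labelled T, and directions drawn from T are those of these libraries. The T libraries serve in both the comparison with S and that with A + T. Animal 22 of A + T stood apart. The airway genes Scgb1a1 and Sftpb summed to 1277 CPM in its library, to 80.5 CPM in that of T animal 12 and to at most 1.67 CPM in the other libraries. Results that rest on animal 22 are given also without it.

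The levels of the 9 genes were compared per gene length, from the deposited log2 values. These values imply lengths of, for example, 4.23 kilobases (kb) for Pde3a, 7.09 kb for Pde4d and 3.18 kb for Grk5. The annotated exons of these genes cover 12.74, 12.01 and 7.05 kb, so the order between genes depends on the length used. Adcy6 was the highest, with a mean of 5.23 over the 9 libraries and a range of 4.94 to 5.52 on the log2 scale per length. Adcy5 followed at 4.60, Adrbk1 at 4.37 and Pde3a at 4.35, and the ranges of these 3 overlapped. Grk5 at 3.46, Adra1b at 3.40 and Adrb1 at 3.28 formed a lower set with overlapping ranges. Pde4d at 2.45 and Adra1a at 2.03 were the lowest, and their ranges overlapped too. Thus both cyclases stood above the receptors. Ranges overlapped among Adcy5, Adrbk1 and Pde3a, among Grk5, Adra1b and Adrb1, and between Pde4d and Adra1a. The range of Adcy6 did not overlap with that of Adcy5 (4.09 to 4.87). Overlap of ranges leaves out that the genes were measured in the same libraries. Pde4d, for example, was above Adra1a in S animal 2 (2.54 against 1.46) and below it in A + T animal 22 (2.25 against 2.33). Differences between neighbours within libraries were not tested. Adrbk1 is the older symbol of the gene now named Grk2.

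In the mouse assembly GRCm38.p6, the sequence that mm10 names, RefSeq places Adrb1 at chr19:56722117-56725150 on the plus strand and Adra1a at chr14:66635251-66771240 on the plus strand. Adra1b lies at chr11:43774605-43901250 on the minus strand. Adrbk1 lies at chr19:4285999-4306222 on the minus strand and Grk5 at chr19:60889560-61095968 on the plus strand. Adcy5 lies at chr16:35154494-35305743 on the plus strand and Adcy6 at chr15:98589978-98610287 on the minus strand. Pde3a lies at chr6:141249269-141506862 and Pde4d at chr13:108654177-109955969, both on the plus strand. The counts cover whole genes, so isoforms, such as the many of Pde4d, are not separated.

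cAMP acts on transcription through CREB, which binds the cAMP response element TGACGTCA or its core TGACG. RefSeq promoters of GRCm38.p6, windows of 300 bases around each start, were matched for 5 of the 9 genes (Adrb1, Adra1b, Grk5, Adcy5 and Pde4d), with 6 windows in all. The promoters of Adra1a, Adrbk1, Adcy6 and Pde3a were not used here. On either strand, the element TGACGTCA was in 0 of the 6 windows, against 1.79% of 32851 promoters, and the core TGACG, which the full element also holds, was in 1 of the 6, against 20.8%. The GC box GGGCGG was in 3 of the 6 windows (Adrb1, Adra1b and Adcy5), against 35.7%, while TATAAA and CACGTG were in 0 of the 6, against 13.6% and 7.15%. A match is a description of the letters only. The Adrb1 window is shown because Adrb1 heads the pathway and its window is the only one of the 6 with the core, which is in capitals (chr19:56721867-56722166, plus strand, GC content 72.3%).
Adrb1: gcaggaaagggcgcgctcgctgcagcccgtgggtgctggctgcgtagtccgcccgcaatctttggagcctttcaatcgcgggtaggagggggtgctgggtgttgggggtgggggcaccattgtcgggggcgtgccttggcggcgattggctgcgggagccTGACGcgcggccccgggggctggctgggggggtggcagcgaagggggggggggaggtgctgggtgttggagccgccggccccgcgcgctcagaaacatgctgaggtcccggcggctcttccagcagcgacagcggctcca

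Adrb1, the beta-1 receptor, had levels of 21.3, 23.0 and 27.3 CPM in S. In T it had 25.7, 20.9 and 22.4 CPM, and in A + T 25.0, 26.05 and 26.2 CPM. All 3 groups overlapped. The log2 fold change was −0.05 (SE 0.11, adjusted P = 0.781) in T vs. S, 0.16 (SE 0.11, adjusted P = 0.423) in A + T vs. T and 0.11 (SE 0.11, adjusted P = 0.554) in A + T vs. S. The 95% intervals of its fold changes ran from 0.815 to 1.14, from 0.944 to 1.33 and from 0.913 to 1.28. A change of 1.5-fold in either direction thus lay outside all 3 intervals.

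Adra1a, an alpha-1 receptor of cardiac muscle, had 13.4, 16.9 and 19.95 CPM in S, 19.3, 17.1 and 23.0 CPM in T, and 20.7, 27.8 and 24.5 CPM in A + T. Every A + T library lay above every S library, while T overlapped with both. Against S, the A + T level had a log2 fold change of 0.54 (SE 0.16, adjusted P = 0.0689), the largest of the 9 genes in any comparison. The gene passed with DESeq2 (adjusted P = 0.0333) and with edgeR's likelihood ratio test (adjusted P = 0.0319), and it did not pass in the other alternatives. Its values were 0.24 (SE 0.17, adjusted P = 0.336) in T vs. S and 0.30 (SE 0.16, adjusted P = 0.307) in A + T vs. T.

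Adra1b, the other alpha-1 receptor among the 9, had 36.0, 35.4 and 39.1 CPM in S, 38.9, 28.3 and 36.3 CPM in T, and 48.3, 40.8 and 39.9 CPM in A + T. The A + T libraries lay above all S and all T libraries. The log2 fold change of A + T vs. T was 0.32 (SE 0.12, unadjusted P = 0.0252, adjusted P = 0.156). It was 0.22 (SE 0.12, adjusted P = 0.270) in A + T vs. S and −0.09 (SE 0.12, adjusted P = 0.620) in T vs. S, so the separation did not pass after adjustment.

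**Figure D1:**
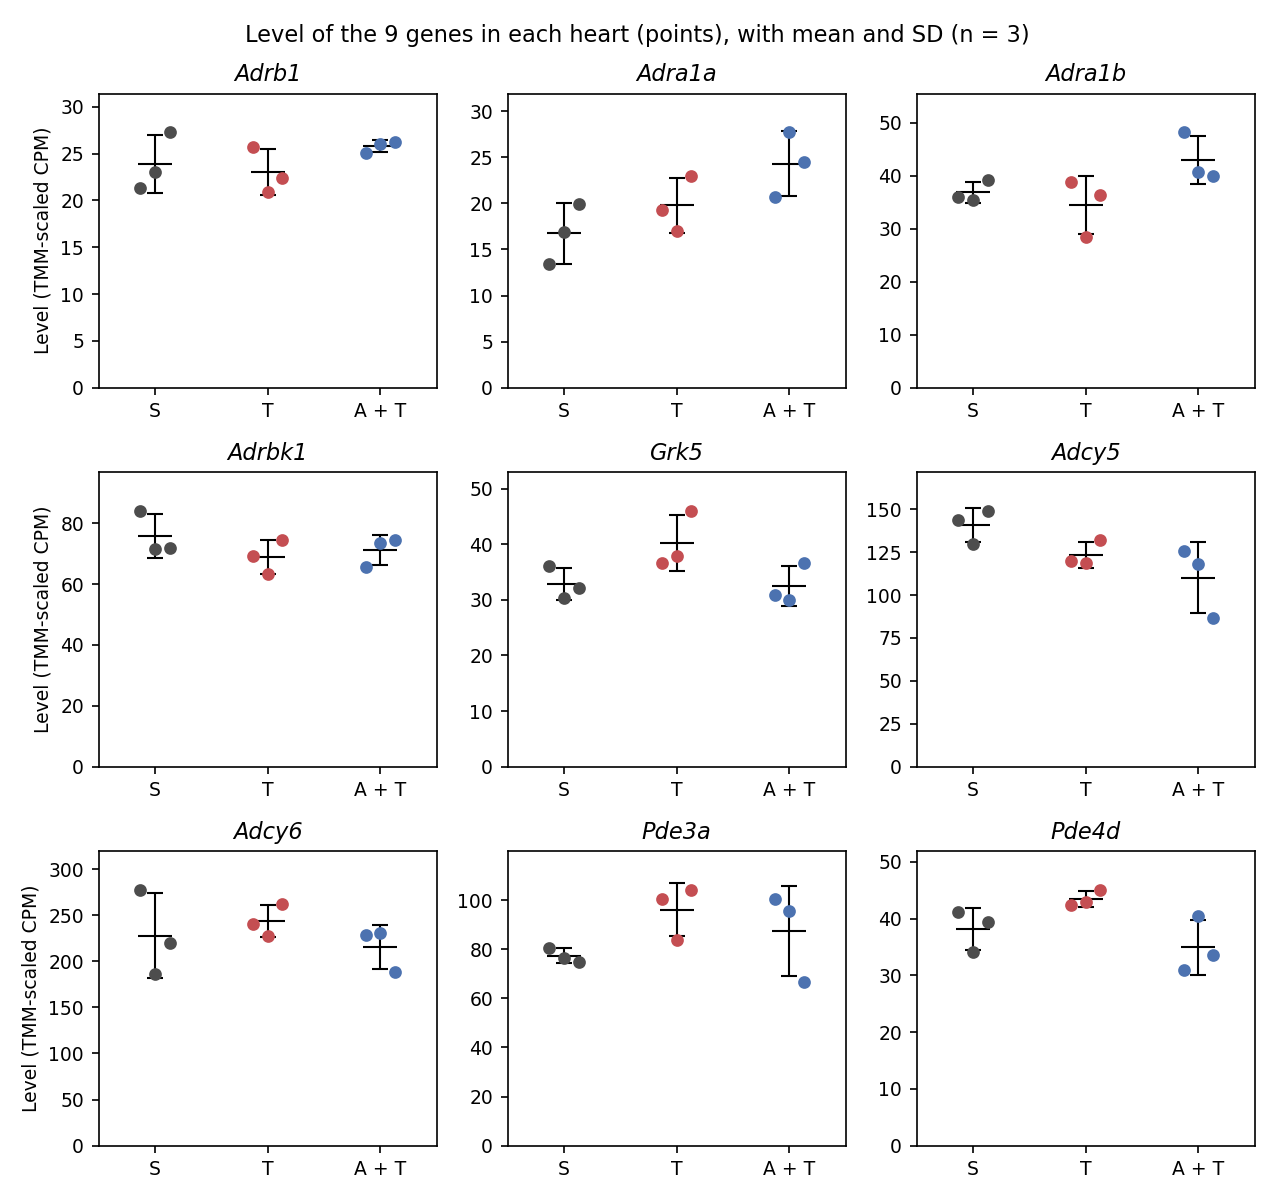
Level of each gene (TMM-scaled CPM, vertical axis from 0) in each heart of S, T and A + T, with 1 point per library, the mean as a horizontal bar and the SD as error bars (n = 3 per group). Adra1a and Adra1b are highest on average in A + T, Grk5 and Pde4d on average in T, and the lowest point of Adcy5 (86.8 CPM) and of Pde3a (66.5 CPM) is animal 22 of A + T.

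Adrbk1, the broadly expressed kinase that phosphorylates agonist-occupied beta receptors, had 84.1, 71.4 and 71.8 CPM in S, 69.4, 63.3 and 74.4 CPM in T, and 65.5, 73.6 and 74.4 CPM in A + T. The groups overlapped. Its log2 fold change was −0.14 (SE 0.10, adjusted P = 0.340) in T vs. S, 0.04 (SE 0.10, adjusted P = 0.825) in A + T vs. T and −0.09 (SE 0.10, adjusted P = 0.580) in A + T vs. S. It varied little, with a ratio of 1.33 between its highest and lowest library.

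Grk5, the other main receptor kinase of the heart, had 36.1, 30.3 and 32.2 CPM in S, 36.7, 37.9 and 46.0 CPM in T, and 30.9, 30.0 and 36.6 CPM in A + T. The T libraries lay above every S and every A + T library, though T animal 11, S animal 2 and A + T animal 22 were close together. The log2 fold change was 0.29 (SE 0.12, unadjusted P = 0.0312, adjusted P = 0.103) in T vs. S and −0.30 (SE 0.12, unadjusted P = 0.0250, adjusted P = 0.155) in A + T vs. T. The means of A + T and S were close, with a log2 fold change of −0.02 (SE 0.12, adjusted P = 0.948). Without animal 22, Grk5 in T vs. S had 0.29 with an adjusted P = 0.0491, which passes, and in A + T vs. T −0.40 with an adjusted P = 0.0603.

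Adcy5, a cyclase that Gi and calcium inhibit, had 143.5, 129.8 and 149.1 CPM in S, 119.6, 118.4 and 132.1 CPM in T, and 125.7, 118.0 and 86.8 CPM in A + T. The A + T libraries lay below all S libraries, whereas T animal 15 lay above S animal 3. The log2 fold change was −0.35 (SE 0.13, unadjusted P = 0.0186, adjusted P = 0.112) in A + T vs. S, −0.19 (SE 0.13, adjusted P = 0.313) in T vs. S and −0.16 (SE 0.13, adjusted P = 0.492) in A + T vs. T. Without animal 22 the first of these was −0.20 (adjusted P = 0.186) and the last −0.02 (adjusted P = 0.928), so their size rests in part on that animal.

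Adcy6, the other calcium-inhibited cyclase of heart muscle, had the highest level of the 9 genes, with 277.4, 185.7 and 220.1 CPM in S, 240.7, 227.5 and 261.8 CPM in T, and 229.0, 230.1 and 188.1 CPM in A + T. The S libraries spanned the values of both other groups. Its log2 fold change was 0.10 (SE 0.14, adjusted P = 0.666) in T vs. S, −0.17 (SE 0.14, adjusted P = 0.509) in A + T vs. T and −0.08 (SE 0.14, adjusted P = 0.767) in A + T vs. S.

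Pde3a, which hydrolyses cAMP near the sarcoplasmic reticulum, had 80.7, 76.4 and 74.8 CPM in S, 100.5, 83.7 and 104.2 CPM in T, and 100.6, 95.5 and 66.5 CPM in A + T. All T libraries were above all S libraries, and 2 of the 3 A + T libraries were too, with animal 22 below them. The log2 fold change in T vs. S was 0.31 (SE 0.14, adjusted P = 0.147). It passed when only the S and T libraries were fitted (0.32, adjusted P = 0.0313) and without animal 22 (0.32, adjusted P = 0.0201). In A + T vs. S it was 0.18 (SE 0.14, adjusted P = 0.463), and 0.35 (adjusted P = 0.0571) without animal 22. In A + T vs. T it was −0.13 (SE 0.14, adjusted P = 0.625), and 0.03 (adjusted P = 0.896) without animal 22, so the sign of this last value depended on that library.

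Pde4d, a cAMP phosphodiesterase of calcium-handling and receptor complexes, had 41.1, 34.1 and 39.4 CPM in S, 42.4, 43.0 and 45.1 CPM in T, and 30.9, 40.4 and 33.6 CPM in A + T. The T libraries lay close together and above all others. The log2 fold change was 0.19 (SE 0.11, adjusted P = 0.248) in T vs. S, −0.31 (SE 0.11, unadjusted P = 0.0155, adjusted P = 0.119) in A + T vs. T and −0.13 (SE 0.11, adjusted P = 0.486) in A + T vs. S.

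Over the 9 genes, edgeR's test called 0 in T vs. S, where it called 21.2% of all genes tested, and 1 gene (Grk5) was under an unadjusted P-value of 0.05, against 35.4% of all genes. In A + T vs. T it called 0, against 5.88%, and 3 (Adra1b, Grk5 and Pde4d) were under the unadjusted 0.05, against 22.4%. In A + T vs. S it called 0, against 8.31%, and 2 (Adra1a and Adcy5) were under it, against 26.1%. DESeq2 and edgeR's likelihood ratio test each called 0, 0 and 1 (Adra1a), and limma-voom called 0 in each. At the study's threshold, an unadjusted P-value under 0.05 with at least a 1.5-fold change, 0 of the 9 passed in each comparison, against 14.2%, 8.1% and 8.91% of all genes. The libraries of the groups did not overlap for 3 of the 9 genes in each comparison, against 42.6%, 25.4% and 32.4% of all genes tested, so the share was near these backgrounds. The median absolute log2 fold change of the 9 genes was 0.19 in T vs. S, beside 0.23 over all genes tested. In A + T it was 0.17 against T, beside 0.17, and 0.13 against S, beside 0.19. Their median SE was 0.12 in each comparison, beside 0.14 over all genes in both comparisons with T and 0.13 in A + T vs. S, but those of Adra1a, Pde3a and Adcy6 were above the median of all genes. The widest 95% intervals allowed fold changes between 0.721 and 1.55 in T vs. S, between 0.679 and 1.59 in A + T vs. T and between 0.644 and 1.88 in A + T vs. S.

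**Figure D2:**
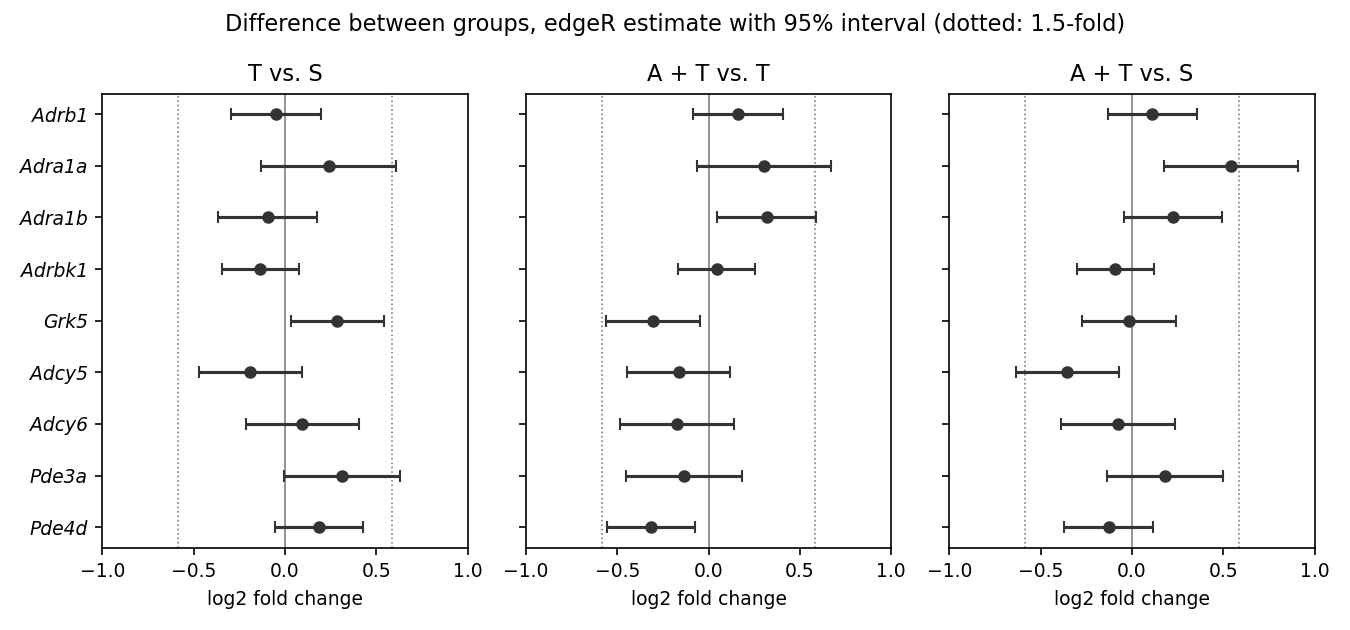
Log2 fold change of the 9 genes in the 3 comparisons named above each panel (points, edgeR estimates) with 95% intervals as bars, the solid line at 0 and the dotted lines at a 1.5-fold change. Most intervals include 0, and the interval of Adra1a in A + T vs. S, from 0.18 to 0.91, lies farthest from it.

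The genes were next set beside the other members of their families, as shares of the summed signal per length in each library. Shares within a library do not depend on its depth. In S, Adra1b gave 37.2% ± 1.38 and Adrb1 34.5% ± 1.57 of the adrenergic receptor signal (SD, n = 3), and Adra1a gave 12.3% ± 1.55. Adra1d, an alpha-1 receptor typical of vessel smooth muscle, gave between 8.64% and 10.9% in S, between 4.16% and 4.34% in T and between 3.14% and 5.44% in A + T. The share of Adra1a lay between 10.6% and 13.5% in S and between 14.3% and 18.0% in T, with no overlap (exact permutation test, two-sided, P = 0.1, the smallest that 3 against 3 allows). Shares of a family have a fixed sum, so the lower share of Adra1d in T goes with higher shares elsewhere. The level of Adra1a itself overlapped between T and S (log2 fold change 0.24, adjusted P = 0.336 in edgeR's test).

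Among the receptor kinases, Adrbk1 gave 47.3% ± 0.383 of the signal in S and between 40.1% and 44.7% in T. Grk5 gave between 21.8% and 23.1% in S, between 25.9% and 28.6% in T and between 20.5% and 24.1% in A + T. The T libraries did not overlap with S or A + T for Grk5 (exact permutation test, P = 0.1 for both). Adcy5 and Adcy6 together gave 77.0% ± 1.29 of the cyclase signal in S, 78.9% ± 0.476 in T and, with ACVR2B/Fc, 77.1% ± 1.98 in A + T, so these cyclases held most of it in every library. The remaining cyclase signal came mainly from Adcy9, with 9.45% ± 0.417 in S, and Adcy4, with 6.79% ± 0.501.

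The cAMP phosphodiesterases had no single dominant gene. In S the highest was Pde4a, between 19.0% and 21.5%, followed by Pde3a, between 16.01% and 17.3%. In T the order was the other way round, with Pde3a between 18.9% and 21.5% and Pde4a between 13.8% and 14.2%. Pde3a also led in A + T, between 17.4% and 21.8%, above Pde4a, between 12.7% and 17.0%. These orders rest on the length implied by the deposited values, which for Pde3a was 4.23 kb, beside 12.74 kb of annotated exons. Orders under other lengths were not tested. Pde7a gave 9.27% ± 0.966 in S, 14.0% ± 0.0422 in T, and its share was 14.0% ± 0.525 in A + T. Pde4d gave 4.92% ± 0.410 in S, 5.56% ± 0.218 in T, and its share was 4.76% ± 0.662 in A + T. For Pde3a, Pde4a, Pde7a and Pde4d, T and S did not overlap (exact permutation test, P = 0.1 for each). Of the 16 phosphodiesterases, the same held for Pde1a, Pde1c, Pde4b, Pde8b and Pde10a. The P-value is the smallest that 3 against 3 allows and restates the lack of overlap. Levels in CPM did not overlap between T and S for 42.6% of all genes tested, so separation was not read as a trait of this family. These shares also have a fixed sum, so the lower share of Pde4a in T goes with higher shares elsewhere.

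**Figure D3:**
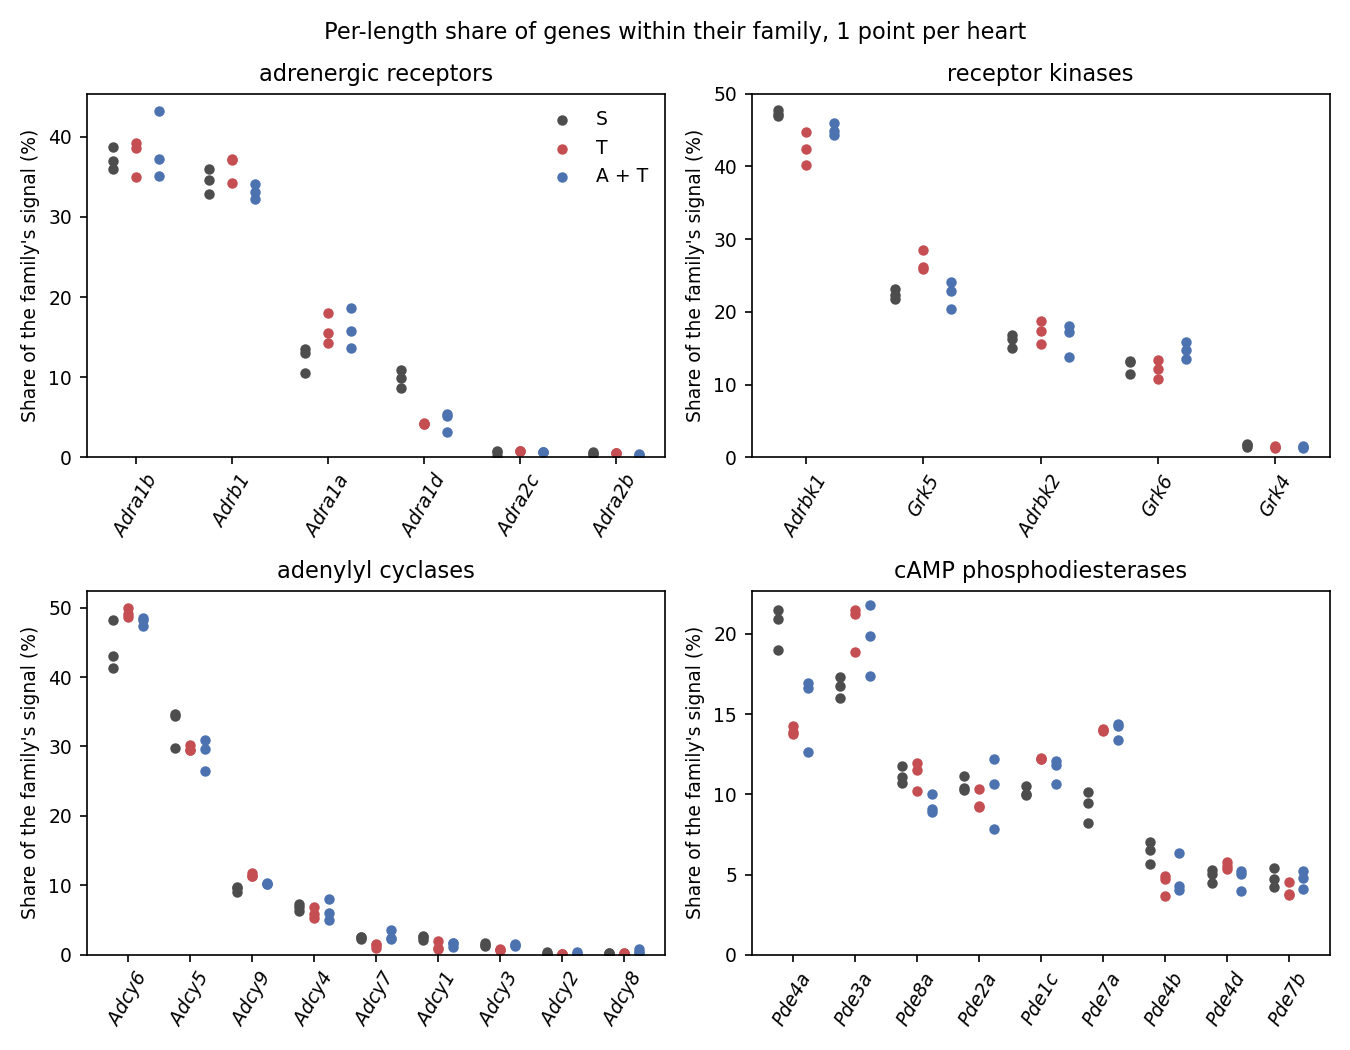
Share (%) of the summed per-length signal of 4 families taken by the genes shown, with 1 point per heart coloured by group (S, T, A + T) and up to 9 genes per family. Adrb1 and Adra1b lead the receptors and Adcy6 and Adcy5 the cyclases in all groups, while Pde4a leads the phosphodiesterases in S and Pde3a in T.

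The other genes of the pathway were taken from 13 lists, and 127 of them were tested. In T vs. S, 9 of the 127 were higher and 20 lower (10.3% and 11% of all genes tested were higher and lower). The count of 29 called genes was 17 without S animal 2 or 3, 18 without S animal 5, 16 without T animal 11 and 42 once animal 22 of A + T was left out. The median log2 fold change over the 127 was −0.05, beside −0.00376 over all genes. Markers of some other cells were lower in T as well, but some genes, such as Rgs5 and Dbh, are in both kinds of list. Rgs5 gave 154.1 to 223.1 CPM of the smooth muscle and pericyte sum in S and 78.8 to 114.7 in T. Dbh gave 11.1 to 16.1 CPM of the sympathetic and Schwann sum in S and 3.03 to 3.86 in T. Of the endothelial markers 4 of 5 were lower in T than in S (summed 414 to 521 CPM, against 732 to 860), of smooth muscle and pericytes 6 of 7 (215 to 297, against 434 to 518), of fibroblasts 6 of 6 (813 to 939, against 1350 to 1553) and of sympathetic neurons and Schwann cells 2 of the 4 tested (11.02 to 12.6, against 21.3 to 26.1). Of 7 cardiomyocyte markers, 1 was higher (Tnnt2) and 1 lower (Actc1), and they summed to 45742 to 56625 CPM in T and 59263 to 65509 in S. In bulk RNA, fewer cells of a type and less RNA per cell cannot be told apart, and the part of these markers in the results below was not tested.

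Of the other adrenergic receptors, Adra1d was lower in T. It had 6.74, 5.43 and 7.16 CPM in S and 2.66, 2.14 and 2.62 CPM in T, with a log2 fold change of −1.38 (SE 0.23, adjusted P = 0.00261). Adra2c (0.48, adjusted P = 0.551) did not pass. Of 20 G protein subunits 4 were lower in T, namely Gnb4 (−1.31), Gng11 (−1.13), Gnao1 (−0.62) and Gng10 (−0.47). Gnb4 had 15.6, 15.3 and 14.1 CPM in S and 5.08, 5.82 and 7.48 CPM in T. Of 8 RGS proteins, which speed the shut-off of G proteins, 3 were lower, namely Rgs5 (−1.05), Rgs4 (−0.76) and Rgs3 (−0.50). Rgs5 is itself a pericyte marker in the list above. The call of Gnao1 was lost without any S animal or T animal 11 or 15 (−0.91 to −0.43 over the fits that left out a library), that of Gng10 without S animal 3 or 5 or T animal 11 or 12 (−0.57 to −0.38), and that of Rgs3 without S animal 2 or 3 or T animal 11 or 12 (−0.59 to −0.40). The other receptor kinases did not pass, with Adrbk2 at 0.13 (adjusted P = 0.311), Grk6 at −0.05 (adjusted P = 0.846) and Grk4 at −0.24 (adjusted P = 0.476), and the arrestin genes Arrb1 (−0.55, adjusted P = 0.0508) and Arrb2 (−0.18, adjusted P = 0.444) did not pass either.

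Among the 6 other cyclases tested, 3 were lower in T, namely Adcy3 (−1.11, SE 0.19, adjusted P = 0.00266), Adcy7 (−1.05, SE 0.25, adjusted P = 0.0150) and Adcy1 (−0.99, SE 0.26, adjusted P = 0.0200). Adcy4 (−0.22, adjusted P = 0.351), Adcy8 (0.55, adjusted P = 0.407) and Adcy9 (0.23, adjusted P = 0.126) did not pass. The 3 lower cyclases were minor in S, at 2.46% ± 0.127 of the cyclase signal for Adcy7, 2.44% ± 0.273 for Adcy1 and 1.41% ± 0.232 for Adcy3. The call of Adcy7 was lost without S animal 2 or T animal 11, and that of Adcy1 without any S animal or T animal 11 or 15, with log2 fold changes from −1.17 to −0.84 and from −1.45 to −0.78 over the fits that left out a library.

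Of 14 other cAMP phosphodiesterases, 2 were higher and 4 lower in T. Pde7a, a cAMP-specific enzyme, had 59.1, 71.2 and 68.1 CPM in S and 102.0, 96.2 and 104.6 CPM in T, with a log2 fold change of 0.61 (SE 0.10, adjusted P = 0.00259). Pde10a fell by 0.94, Pde4a by 0.54 and Pde4b by 0.52 on the log2 scale (adjusted P = 0.0179, 0.0383 and 0.0190 with edgeR). Pde4a had 122.1, 105.6 and 119.5 CPM in S and 80.2, 74.5 and 84.1 CPM in T. Its call was lost when any S or T library was left out, with log2 fold changes from −0.60 to −0.49 over those fits, that of Pde10a without S animal 2 or 3 or T animal 11 (−1.05 to −0.82) and that of Pde4b without S animal 3 or 5 or T animal 11 (−0.60 to −0.41).

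Downstream of cAMP, 1 of 9 PKA subunits and inhibitors changed in T vs. S. Prkar1a, the regulatory subunit that holds PKA inactive until cAMP binds, had 786.3, 811.1 and 849.7 CPM in S, 1443, 1367 and 1604 CPM in T, and 1004, 909.8 and 817.7 CPM in A + T. The log2 fold change was 0.85 (SE 0.10, adjusted P = 0.000490) in T vs. S and −0.69 (SE 0.10, adjusted P = 0.00696) in A + T vs. T, and T overlapped with neither group. In both comparisons Prkar1a passed in all 9 fits that left out a library. Of 10 A-kinase anchors, which place PKA in the cell, Akap12 was lower (−1.14, SE 0.14, adjusted P = 0.000519). Of 8 other cAMP effectors, the pacemaker channel gene Hcn2 was lower (−0.91) and Popdc3, of a family of cAMP-binding membrane proteins, higher (0.32).

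Among 14 PKA targets and phosphatase genes, 3 were higher in T, namely Pln (0.38), which encodes phospholamban, the brake on the calcium pump, and the phosphatase catalytic subunits Ppp1cb (0.46) and Ppp1ca (0.35). Of 10 genes of the alpha-1 path, the calcium-release channel gene Itpr1 was lower (−0.58, adjusted P = 0.00820). Of 13 CREB family and cAMP-induced genes, Ppargc1a, a coactivator of mitochondrial genes, was higher (0.79, adjusted P = 0.0325). Itpr1 passed in 9 of the 9 fits that left out a library (−0.66 to −0.47). The other called genes of these lists kept their direction in those fits, but not all of them kept their call. The call of Popdc3 was lost without any S or T library (log2 fold changes of 0.26 to 0.36 over the fits that left out a library), and that of Pln without any of these or A + T animal 21 (0.35 to 0.43). Ppp1ca lost its call without S animal 2 or 5 or T animal 11 (0.32 to 0.38), Ppp1cb without S animal 2 or 3 or T animal 12 (0.38 to 0.54), and Ppargc1a without any S animal or T animal 11 or 15 (0.66 to 1.02).

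Genes of catecholamine handling that were lower in T were Dbh and Slc22a3. Dbh, which makes noradrenaline from dopamine, had 11.1, 16.1 and 11.7 CPM in S, 3.03, 3.86 and 3.18 CPM in T, and 8.96, 6.89 and 6.28 CPM in A + T. Its log2 fold change was −1.94 (SE 0.20, adjusted P = 0.000236) in T vs. S. Slc22a3, a low-affinity catecholamine transporter, was lower in T (−0.72, adjusted P = 0.0225), a call lost without S animal 5 or T animal 12 or 15 (−0.82 to −0.57). Dbh is also a sympathetic neuron marker in the list above, and Sox10, a Schwann cell marker of the same list, was lower as well.

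**Figure D4:**
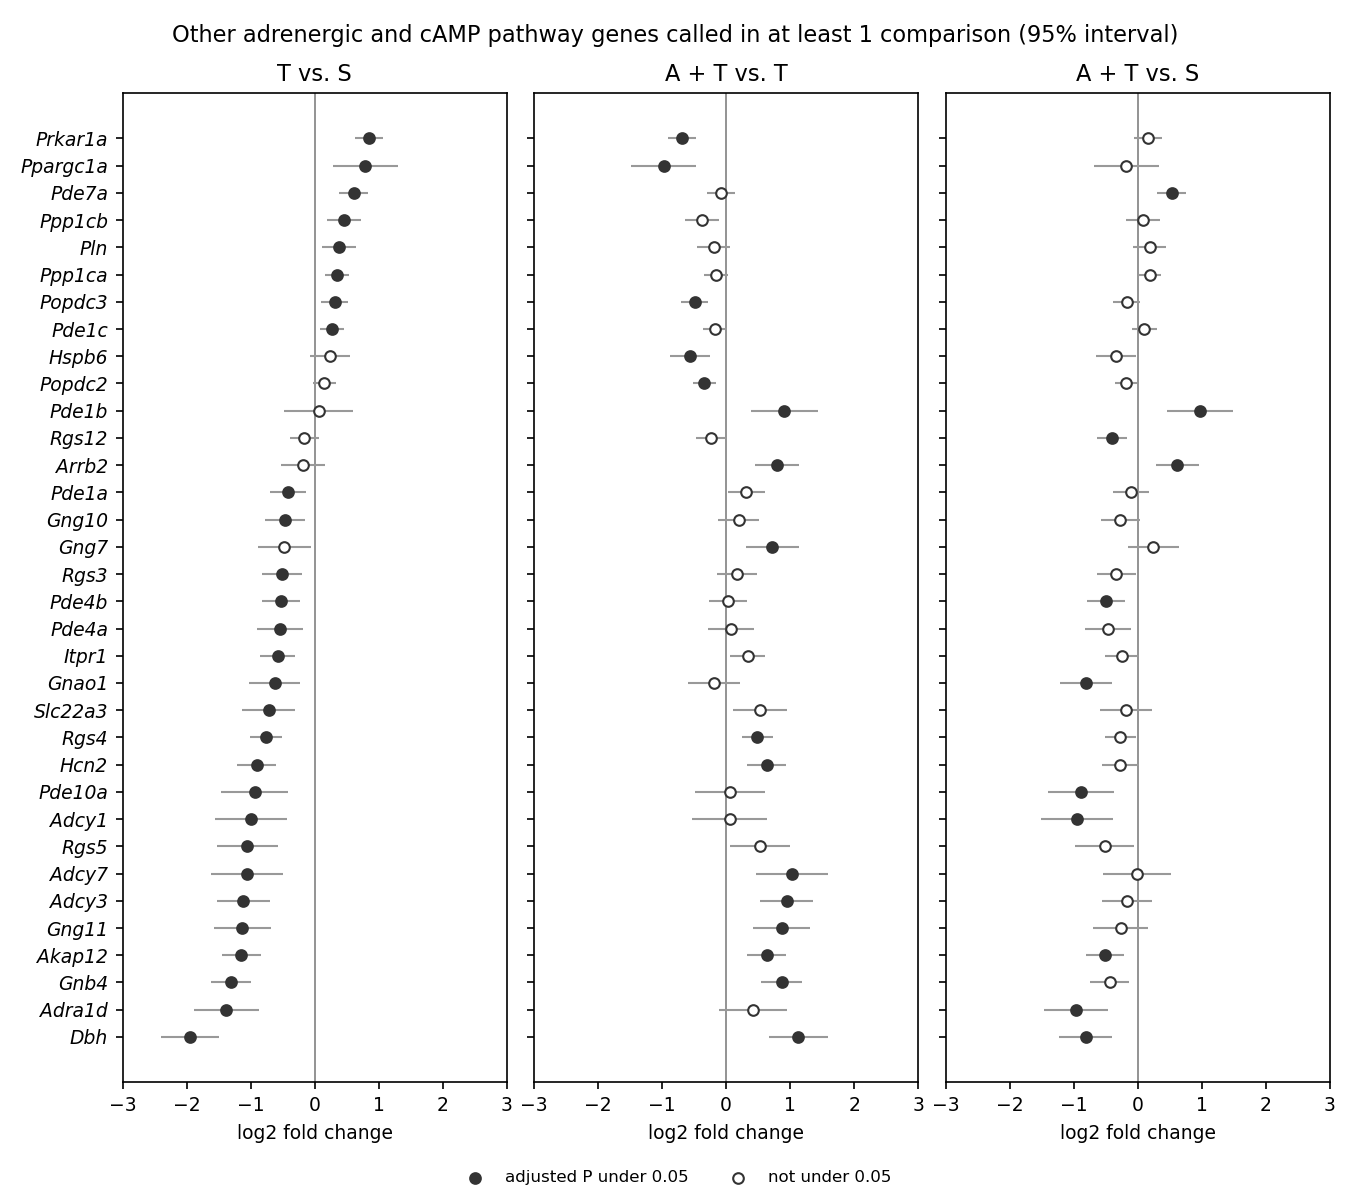
Log2 fold change (points, edgeR estimates) with 95% intervals (bars) of other pathway genes called in at least 1 comparison, with a panel for each of the 3 comparisons, ordered by T vs. S. Filled points have an adjusted P-value under 0.05, among them Dbh (−1.94) and Prkar1a (0.85) at the ends of T vs. S, and both of these have the other sign in A + T vs. T.

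In A + T vs. T, 11 of the 127 pathway genes were higher and 6 lower (3.09% and 2.79% of all genes tested). The higher genes included the G protein subunits Gnb4 (0.87), Gng11 (0.87) and Gng7 (0.72), the cyclases Adcy7 (1.04) and Adcy3 (0.94), Arrb2 (0.80), an arrestin, and Dbh (1.13). The lower genes included Prkar1a (−0.69), Ppargc1a (−0.97), the cAMP-binding Popdc3 (−0.49) and Popdc2 (−0.34), and the small heat shock protein gene Hspb6 (−0.57). The remaining higher genes were Pde1b (0.91), Hcn2 (0.64), Akap12 (0.63) and Rgs4 (0.49). Prkar1a passed in 9 of the 9 fits that left out a library, and Dbh and Gnb4 passed in 8, the exception being the fit without T animal 11. Popdc3 and Arrb2 passed in 7 of the 9, Adcy3 and Akap12 in 6, Hcn2 in 4, Gng11 and Rgs4 in 3, Ppargc1a in 2, Adcy7, Pde1b, Popdc2 and Hspb6 in 1 each, and Gng7 in 0. Gng11 had 32.5, 28.8 and 52.7 CPM in A + T, and 18.5, 22.8 and 21.4 CPM in T. Without animal 22, its highest library, its log2 fold change was 0.55 (adjusted P = 0.0232). Also without animal 22, the calls of Gng7 (0.74, adjusted P = 0.0650), Pde1b (0.84, adjusted P = 0.0870) and Hspb6 (−0.46, adjusted P = 0.0612) were lost. The count was 2 (Prkar1a and Dbh) when only the T and A + T libraries were fitted and 1 (Prkar1a) without T animal 11, and it lay between 5 and 11 without any other library but animal 22, without which it was 17. Macrophage markers were higher in A + T, with 4 of 5 called against T and against S (447 to 680 CPM, against 225 to 310 in T and 264 to 291 in S). Higher in A + T than in T were also 4 of 6 fibroblast markers, 1 of 5 endothelial and 1 of 7 smooth muscle and pericyte markers. Of the sympathetic and Schwann markers 1 of 4 was higher, namely Dbh itself. Their part in these values was not tested.

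Between A + T and S, 3 of the 127 genes were higher and 8 lower (4.67% and 3.64% of all genes tested). Higher were Pde1b (0.97), Arrb2 (0.62) and Pde7a (0.53), and lower were Adra1d (−0.96), Adcy1 (−0.94), Pde10a (−0.88), Dbh (−0.81), Gnao1 (−0.81), Akap12 (−0.51), Pde4b (−0.50) and Rgs12 (−0.40). Adra1d had 3.96, 3.66 and 2.28 CPM in A + T. Pde7a had 95.6, 106.3 and 84.4 CPM in A + T, above all S libraries. In edgeR's test the count was 0 without S animal 2 (25 at an unadjusted P-value under 0.05), 2 without S animal 3, 4 without S animal 5 or A + T animal 21, 5 without A + T animal 20, 7 without T animal 11 and 7 without animal 22 of A + T, and Pde7a passed in 8 of the 9 fits that left out a library, while the other genes passed in 2 to 5 of them. Without animal 22, the calls of Adcy1 (−0.93), Pde10a (−0.66), Dbh (−0.70), Akap12 (−0.52), Rgs12 (−0.34), Pde1b (0.91) and Arrb2 (0.60) were lost. Markers of other cells were lower in A + T than in S as well, with 2 of 7 of smooth muscle and pericytes (Acta2 −0.92 and Myh11 −0.64, summed 275 to 387 CPM in A + T), 1 of 5 endothelial (Cdh5 −0.55, summed 548 to 665) and 2 of 4 sympathetic and Schwann markers (Dbh and S100b, summed 14.2 to 17.7). Their part in the lower values of Adra1d, Dbh and the other genes was not tested.

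Of 6 atrial markers, 1 (Bmp10) was lower in T than in S, with sums of 3075 to 3146 CPM in S, 865 to 4631 in T and 800 to 2087 in A + T. The adipocyte markers summed to at most 28.4 CPM in any library, and the erythroid markers to between 70.5 and 348 CPM.

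Across the 9 libraries, the levels of the 9 genes varied together only in part. The highest Pearson correlation of log2 CPM was 0.70, between Adrb1 and Adra1b, followed by 0.65 between Adcy6 and Pde4d, and the lowest was −0.59, between Adra1b and Pde4d (n = 9 libraries, which share the groups and the scaling). Among all genes tested, those with the highest correlation with Adrb1 were Arid3b (0.95), Plbd1 (0.92) and Frs3 (0.91). For Adra1a they were A930013F10Rik (0.95), Agbl5 (0.94) and Gng5 (0.93), and for Adra1b they were Frmd4a (0.96), Impa2 (0.94) and Podxl2 (0.92). Adrbk1 was most like Epas1 (0.95), Nova2 (0.93) and Erg (0.92), and Grk5 most like Dgat1 (0.95), Ankrd54 (0.93) and Cttn (0.93). Adcy5 was most like Trak2 (0.99), Ube3b (0.97) and Lonrf3 (0.97), and Adcy6 most like Ubqln2 (0.97), Supt6 (0.96) and Tln2 (0.95). For Pde3a they were Zak (0.97), Parp3 (0.96) and Tap2 (0.96), and for Pde4d Psme3 (0.93), Polr1b (0.92) and Ubap2 (0.92). These are the highest correlations among all genes tested and are given as a description.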

How the data were processed

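RNA of 9 NSG mouse hearts was analysed, 3 each of S, T and A + T. The authors used STAR to align 75-base read pairs (mm10), counted unique alignments per RefSeq gene with strand, and deposited these counts without normalization. They also deposited log2 values per gene, which equalled log2 CPM (TMM, prior count of 2) minus a constant per gene (median SD 1.21e-05), as for a scaling by length, and these were used for levels between genes. Of the rows, 3443 had no symbol and were left out.

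The filter on low counts removed the 526 genes with over 4 libraries below a CPM of 0.5 and left 13364. The groups were fitted together with edgeR 4.0.16 (R 4.3.3), TMM and the quasi-likelihood test. Intervals are 95%. The steps were tested on simulated data. Alternatives used edgeR's likelihood ratio test, DESeq2 1.42.0, limma 3.58.1 (voom, and the deposited log2 values), other scalings, filters and sample sets, and each library left out. Figures were made with matplotlib 3.10.9. Animal numbers are not shared between groups.

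Named are the 9 genes, the called genes of 13 pathway lists (up to 4 per list), the relatives of the 9 genes whatever their test, and the 3 genes most correlated with each. Markers came from 10 lists. The genes and lists were chosen with earlier results of these data known. Pairs of libraries within a group differed by a chi-square per gene of 7.63 to 134.7. The gene Rn45s took 4.57% to 19.6% of the counts. Intervals cover the spread between libraries, and the limit of 3 counts covers counting error only. Some genes of the lists are counted but not reported here by name.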

Additional observations from a re-analysis of the deposited data

How the results depend on the processing

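The count of the 9 genes called stayed at 0 in A + T vs. T under every alternative. In T vs. S it was 1 with only the groups compared (Pde3a) and between 0 and 2 when each library was left out, and in A + T vs. S it was 1 (Adra1a) with DESeq2 and with the likelihood ratio test, which gave Adra1a log2 fold changes of 0.54. Of the 9 genes' log2 fold changes in the alternatives that kept all libraries, 266 kept their direction and side of the threshold, 3 passed it and 1 changed sign (Grk5 in A + T vs. S, 0.0063 with upper-quartile scaling). When each library was left out, 230 kept both, 2 passed and 11 changed sign, all of them small. Over those fits Adrb1 ran from −0.1398 to 0.0523, Adra1b from −0.1938 to 0.0311 and Adcy6 from −0.034 to 0.2681 in T vs. S, Adrbk1 from −0.0135 to 0.1031 and Pde3a from −0.2459 to 0.0288 in A + T vs. T, and Grk5 from −0.1033 to 0.0636 and Adcy6 from −0.2062 to 0.0947 in A + T vs. S. The pathway count of 29 in T vs. S ran from 16 (without T animal 11) to 42 (without A + T animal 22), that of 17 in A + T vs. T from 1 (without T animal 11) to 17, and that of 11 in A + T vs. S from 0 (without S animal 2) to 12. In the alternatives other than those that left out a single library, it ran from 21 to 38 in T vs. S, from 2 (only the groups compared) to 22 (likelihood ratio test) in A + T vs. T, and from 5 (library size only) to 15 (likelihood ratio test) in A + T vs. S, where the deposited log2 values gave 6. The cause was not tested. No paired analysis was possible because the groups share no animal numbers.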
